A study of Mus musculus with 2 samples.

Results

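The endothelin, nitric oxide and angiotensin systems were followed through 8 genes for which values were compared in the blood vessel cells and the central canal lining of the mouse spinal cord. The genes were chosen by name as Edn1, Edn3, Ece1, Ednra, Ednrb, Nos3, Ace and Agt, and all 8 were found among the 24071 genes with a count. Expression was measured by droplet single-cell RNA sequencing in adult C57BL/6j mice, 10 to 12 weeks old, of the genotype Clec9acre/creR26LSLtdTomato/LSLtdTomato. Both libraries came from this genotype, so Cre was on both alleles of Clec9a, which encodes the dendritic cell receptor DNGR-1, and a Cre-dependent tdTomato reporter sat on both Rosa26 alleles. Myelin-depleted spinal cord cells were sorted as live, CD45- and CD133+, and then by the reporter into a CD133+ non-traced library and a CD133+ DNGR-1 traced library. A traced cell is one that expressed Clec9a, or descends from one that did. Cre acts from the Clec9a locus, and recombination in only part of the cells that expressed Clec9a would leave some of them in the non-traced library.

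Endothelins are short peptides that act on vessel tone. Edn1 and Edn3 encode precursors, and Ece1 encodes the membrane protease that releases the active peptide. Ednra encodes the endothelin A receptor, known on smooth muscle for contraction, and Ednrb encodes the endothelin B receptor, known on endothelium for nitric oxide release and on astrocytes and other glia. Nos3 encodes endothelial nitric oxide synthase, whose product relaxes neighbouring smooth muscle through soluble guanylate cyclase. Agt encodes angiotensinogen, the precursor from which renin and then the converting enzyme encoded by Ace make angiotensin II.

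The parts of the 2 ligand genes that encode the mature peptides are shown because these ligands were detected in the same vessel cells. Each stretch of 63 bases (21 codons) was read 5′ to 3′ from the GENCODE M21 transcripts (GRCm38), and capitals mark the 4 cysteine codons of the endothelin fold. The stretch lies in exon 2 of 5 in both genes, on the plus strand, at chr13:42303649-42303711 for Edn1 and at chr2:174761749-174761811 for Edn3.
Edn1: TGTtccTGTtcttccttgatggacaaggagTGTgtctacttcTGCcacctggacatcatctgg
Edn3: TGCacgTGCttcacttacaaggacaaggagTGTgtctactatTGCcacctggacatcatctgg
The stretches were identical at 50 of 63 bases and had the same meaning at 15 of 21 codons.

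Each group was 1 library, with no replicates. The values therefore describe these 2 libraries, groups could not be tested against each other, and single cells do not stand in for replicates. There were 25411 cells in the non-traced and 4825 in the traced library, at a median depth of 7218 and 8566 UMIs per cell (unique molecular identifiers, which mark single captured RNA molecules). Of the cell barcodes, 42 occurred in both libraries (0.165% and 0.870% of them). Levels are given as CPM, counts per 1000000 UMIs, from a gene's UMIs summed over the cells of a class, with exact Poisson intervals. Shares are the percent of cells with a UMI after each cell was thinned to 1000 UMIs, with exact Clopper-Pearson intervals. All intervals are at the 95% level and cover counting error only.

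Cells were clustered without using the 8 genes and named from marker genes. In the non-traced library 20717 cells were endothelial-like, with all 8 endothelial markers detected. Of these, 4636 were arterial, 9776 capillary and 963 venous, and 5342 lay between the zones. The zones were named from these lists, so the values describe them and test nothing: the 13 arterial markers summed to 3571 CPM in arterial and 336 CPM in capillary cells, and the 12 venous markers to 7210 CPM in venous and 2296 CPM in capillary cells. Chemokine and adhesion genes (Icam1, Cxcl2, Cxcl10) or early response genes (Egr1) led some endothelial clusters. Ependymal-like cells numbered 1165 in the non-traced and 4766 in the traced library, with the 10 ciliary markers at 8209 and 7810 CPM in sum.

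Mural cells, the pericytes and smooth muscle cells that wrap vessels, were nearly all found in droplets with endothelial RNA as well. Of 2542 cells in clusters with mural markers, 185 had less than 0.2% of their UMIs from the 8 endothelial markers and were taken as mural-like, against a median of 1.96% in endothelial-like cells. A further 67 cells lay between 0.2% and 0.4%, 87 of the 185 lay between 0.1% and 0.2%, and 2290 cells lay above 0.4%. This threshold was set after the data were seen, and since it removes cells with endothelial RNA it also lowers any endothelial gene in the mural-like class. The mural-like cells divided into 86 pericyte-like cells, with 39783 CPM of the 10 mural markers and 930 CPM of the 5 smooth muscle markers, and 99 smooth muscle-like cells, with 16417 and 30404 CPM. Haemoglobin genes led 1 of the 3 smooth muscle-like clusters (29 cells), and astrocyte genes (Slc1a2, Aldoc) were among the leading genes of 1 of the 2 pericyte-like clusters (59 cells), where the 8 astrocyte markers summed to 169 CPM against 65.3 CPM in endothelial-like cells. Genes also found in glia and ependymal cells (Mt3, Sox9, Dner) were among the leading genes of another smooth muscle-like cluster (27 cells), where the 10 ependymal markers summed to 196 CPM against 10.95 CPM in endothelial-like cells.

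Within the endothelin system the ligand genes were highest in endothelium and the receptor genes outside it. Edn1, Edn3, Ece1, Nos3 and Ace were highest in endothelial-like cells or, for Ece1, as high in pericyte-like cells. Ednra was highest in mural-like cells and Ednrb in ependymal-like cells. Agt reached at most 2.77 CPM in any of these classes.

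**Figure D1:**
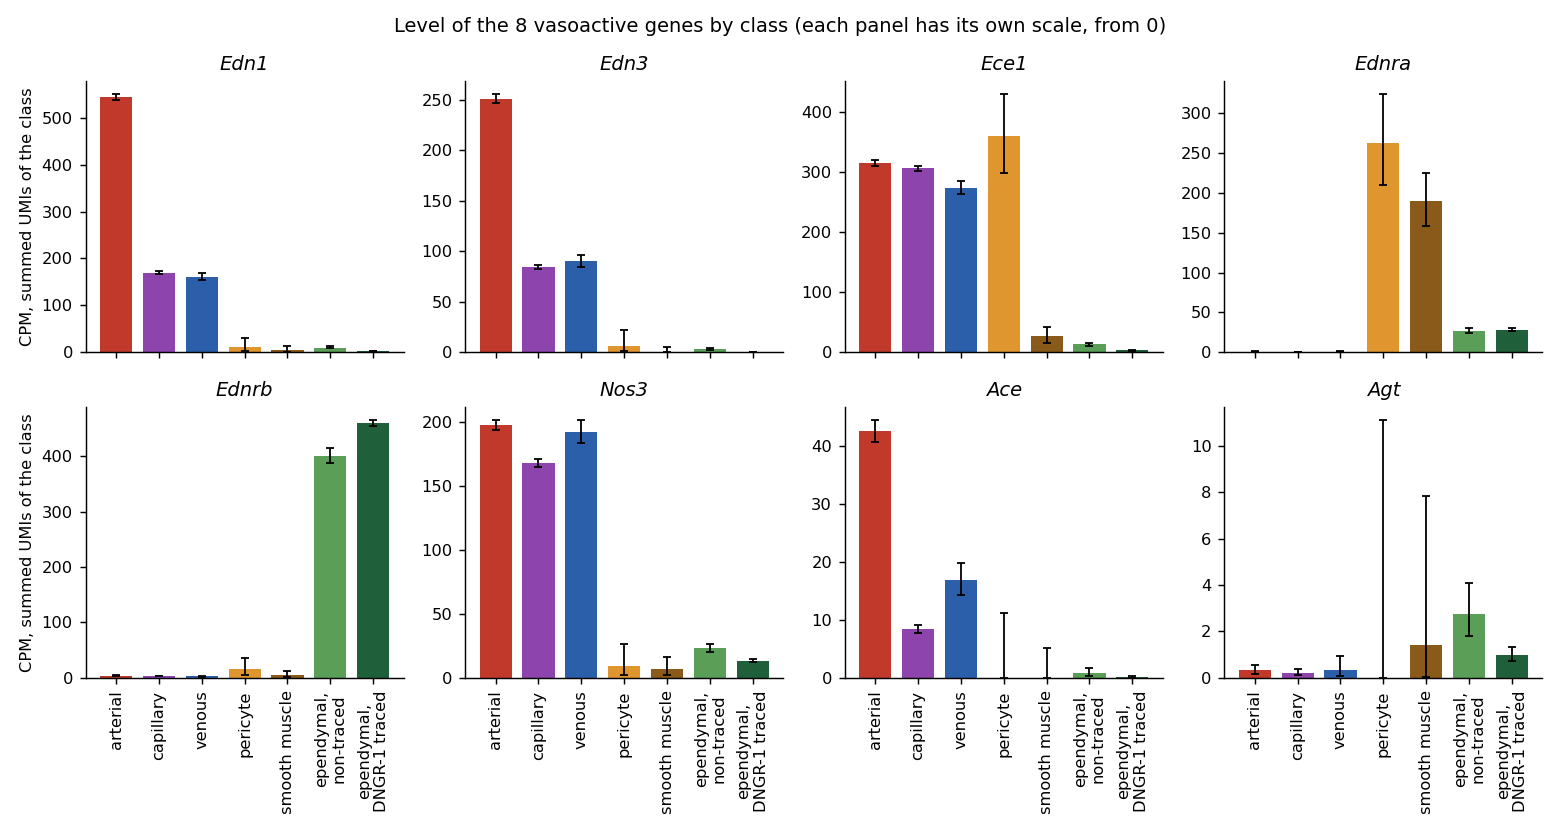
Level in CPM of each of the 8 genes (1 panel each, with its own scale from 0) in arterial, capillary and venous endothelial-like cells, pericyte-like and smooth muscle-like cells of the non-traced library, and ependymal-like cells of both libraries. Bars are CPM of the summed UMIs and lines are exact 95% Poisson intervals. Edn1, Edn3 and Ace stand highest in arterial cells, Ednra in both mural groups and Ednrb in ependymal cells of both libraries.

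The first comparison asked whether the genes differ along the vessel tree. In arterial against capillary cells 3 of the 8 genes were over 2-fold higher on the log2(CPM + 1) scale, namely Edn1, Edn3 and Ace, and 0 were lower. Over all 22074 genes with a UMI in either class, 2.17% were over 2-fold higher and 0.535% lower (2.71% either way). Among genes of 10 CPM or more in either class the share either way was 3.87%, and 3.42% in venous against capillary cells. The median difference was 0.25 over the 8 genes and 0.01 over all genes. In venous against capillary cells 0 of the 8 genes differed by over 2-fold, against 2.34% of 21529 genes (1.7% higher and 0.632% lower), and the median difference was 0.10 over the 8 genes and -0.02 over all.

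Edn1 (ENSMUSG00000021367.8, chromosome 13, positions 42301476 to 42307990, plus strand) encodes the main endothelial constrictor peptide. It was at 544 CPM in arterial cells (24541 UMIs, interval 537 to 551), at 170 CPM in capillary cells (interval 167 to 173) and at 161 CPM in venous cells (interval 153 to 170). The arterial level was 3.20 times the capillary level (interval 3.13 to 3.27, log2 difference 1.67). The venous level was 0.948 times the capillary level, and this interval held 1 (0.898 to 1.001). After thinning, an Edn1 UMI was found in 33.8% of arterial cells (interval 32.5 to 35.2), 12.6% of capillary cells and 12.3% of venous cells. Both arterial clusters were above all other endothelial clusters, at 639 CPM in the cluster led by Fbln5 and Mgp, genes of the elastic wall of larger arteries, and 518 CPM in the cluster led by Igfbp3 and Vegfc.

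The capillary clusters were not alike in Edn1. It stood at 234 CPM in the cluster led by Cd300lg and Cxcl12, at 167 CPM in the cluster led by Cxcl10 and Meox1, and at 93.4 CPM in the cluster led by Ndnf and Car4. The venous against capillary difference depended on how finely the cells were divided: at a clustering resolution of 1.2 the venous class held 2406 and the capillary class 7110 cells, and the venous minus capillary log2 difference was -0.64, against -0.08. Outside endothelium Edn1 was low, at 6.71 CPM in mural-like cells (7 UMIs) and 10.1 CPM in ependymal-like cells of the same library (91 UMIs).

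Edn3 (ENSMUSG00000027524.9, chromosome 2, positions 174760619 to 174784042, plus strand) encodes a second endothelin, one that acts mainly on the B receptor. It was at 251 CPM in arterial cells (interval 246 to 256), at 84.2 CPM in capillary cells (interval 82.1 to 86.3) and at 89.96 CPM in venous cells (interval 84.0 to 96.3). The arterial level was 2.98 times the capillary level (interval 2.89 to 3.08), while the venous and capillary levels had a ratio of 1.07 whose interval held 1 (0.993 to 1.15). An Edn3 UMI was found in 20.8% of arterial and 7.15% of capillary cells.

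The 2 arterial clusters ranked the ligands differently. Edn3 was at 283 CPM in the Igfbp3 and Vegfc cluster and at 135 CPM in the Fbln5 and Mgp cluster, a ratio of 0.476 for the latter to the former (interval 0.449 to 0.505). For Edn1 the same ratio was 1.23 (interval 1.198 to 1.269). Edn3 was also among the 10 leading genes of the Igfbp3 and Vegfc cluster, although it was left out of the genes used to cluster.

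Ace (ENSMUSG00000020681.14, chromosome 11, positions 105967945 to 105989964, plus strand) had the steepest arterial difference of the 8 genes. It was at 42.6 CPM in arterial cells (interval 40.7 to 44.5), 16.8 CPM in venous cells (interval 14.3 to 19.7) and 8.37 CPM in capillary cells (interval 7.71 to 9.06). The arterial level was 5.09 times the capillary level (interval 4.64 to 5.58) and the venous level 2.01 times (interval 1.68 to 2.41), the latter just under 2-fold on the log2(CPM + 1) scale at 0.93. Most of the arterial signal lay in the Fbln5 and Mgp cluster, at 110 CPM, against 24.0 CPM in the Igfbp3 and Vegfc cluster, a ratio of 4.57 (interval 4.17 to 5.01). An Ace UMI was found in 10.3% of cells of the former (interval 8.48 to 12.3) and 2.26% of the latter. The capillary clusters were alike, between 8.08 and 8.51 CPM.

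Nos3 and Ece1 varied little along the vessels. Nos3 (ENSMUSG00000028978.12, chromosome 5, positions 24364810 to 24384474, plus strand) was at 198 CPM in arterial, 168 CPM in capillary and 193 CPM in venous cells, so that the arterial level was 1.18 times the capillary level (interval 1.14 to 1.21). It was highest in the Fbln5 and Mgp cluster, at 267 CPM (interval 256 to 277), against 179 CPM in the Igfbp3 and Vegfc cluster. Ece1 (ENSMUSG00000057530.14, chromosome 4, positions 137862237 to 137965229, plus strand) was at 316, 306 and 274 CPM in arterial, capillary and venous cells. Its arterial level was 1.03 times the capillary level (interval 1.01 to 1.05).

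Smooth muscle RNA moved with the arterial class. The 5 smooth muscle markers summed to 32.8 CPM in arterial, 8.92 CPM in capillary and 8.32 CPM in venous cells. In the smooth muscle-like cells themselves, where these markers summed to 30404 CPM, Edn1 was at 4.21 CPM (3 UMIs), and Edn3 and Ace had 0 UMIs, which allows up to 4.21 CPM. Droplets called as doublets (2 cells in 1 droplet) by Scrublet made up 10.6% of arterial, 4.66% of capillary and 2.28% of venous cells, and with these cells left out the arterial minus capillary log2 differences were 1.79 for Edn1, 1.68 for Edn3 and 2.32 for Ace.

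**Figure D2:**
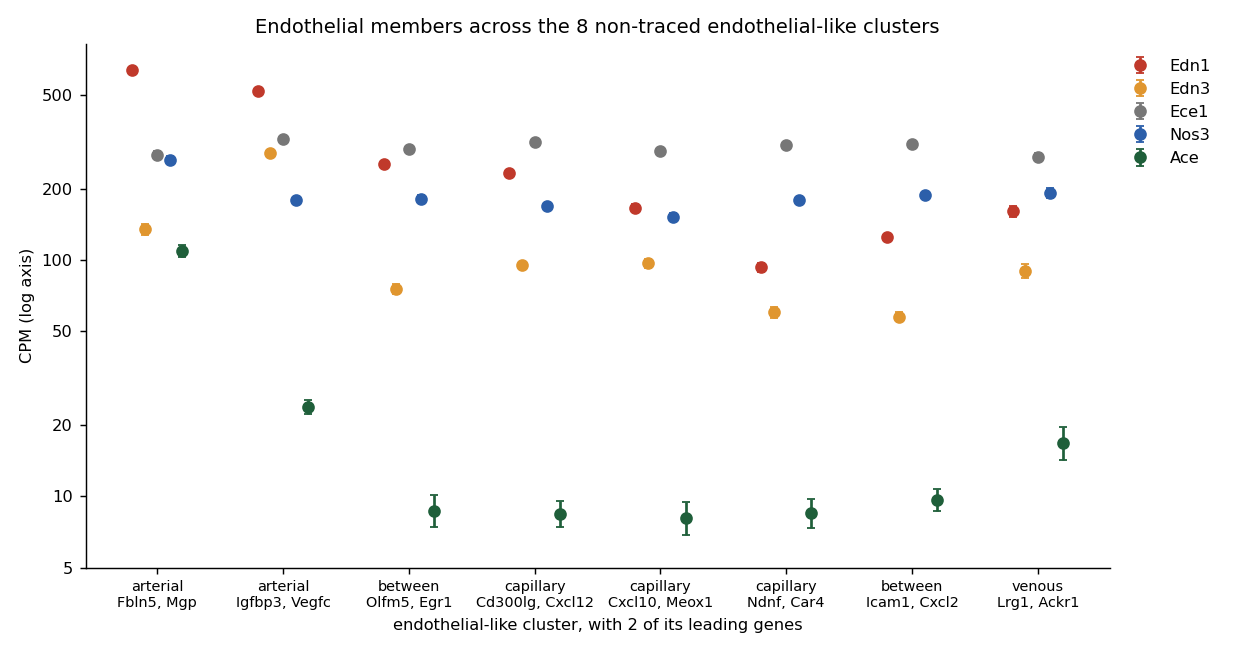
Level in CPM (log axis) of Edn1, Edn3, Ece1, Nos3 and Ace in the 8 endothelial-like clusters of the non-traced library, from arterial on the left to venous on the right, each named with 2 of its leading genes. Points are CPM of the summed UMIs and lines are exact 95% Poisson intervals. Edn1 and Edn3 are highest in the 2 arterial clusters, Ace stands out in the Fbln5 and Mgp cluster, and Ece1 stays between 274 and 326 CPM throughout.

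The second comparison set mural-like against endothelial-like cells. On the log2(CPM + 1) scale, 1 of the 8 genes was over 2-fold higher in mural-like cells (Ednra). On the same scale 5 were lower (Edn1, Edn3, Ece1, Nos3 and Ace) and 2 lay within 2-fold (Ednrb and Agt). As plain ratios of CPM these 2 were at 2.21 (interval 0.951 to 4.39) and 3.78 (interval 0.0937 to 22.1), and both intervals held 1. Among all 22653 genes 12.0% were higher and 11.1% lower, 23.1% either way. The share either way was 33.4% among genes of 10 CPM or more in either class. The median difference was -2.71 over the 8 genes and -0.04 over all genes.

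Ednra (ENSMUSG00000031616.7, chromosome 8, positions 77663031 to 77724464, minus strand) was the receptor of the vessel wall. It was at 263 CPM in pericyte-like cells (87 UMIs, interval 210 to 324), at 190 CPM in smooth muscle-like cells (135 UMIs, interval 159 to 224) and at 0.546 CPM in endothelial-like cells (99 UMIs in 20717 cells, interval 0.444 to 0.664). The mural-like level of 213 CPM was 390 times the endothelial-like level (interval 306 to 499). An Ednra UMI was found in 21.6% of mural-like cells (interval 15.9 to 28.3) and in 0.0386% of endothelial-like cells (interval 0.0167 to 0.0761), at median depths of 4909 and 6901 UMIs. The ratio of pericyte-like to smooth muscle-like cells was 1.39 (interval 1.05 to 1.83). All 5 mural-like clusters held the gene, between 135 and 316 CPM.

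Ednra was also detected in ependymal-like cells, at a lower level. Its level was 26.9 CPM without (243 UMIs, interval 23.6 to 30.5) and 28.2 CPM with the DNGR-1 trace (1296 UMIs, interval 26.7 to 29.8), a ratio whose interval held 1 (0.914 to 1.21). In the traced library 0 cells passed as mural-like and 7 droplets carried mural and endothelial markers together, and in ependymal-like cells the 10 mural markers summed to 159 and 44.5 CPM, non-traced and traced. The gene lies wholly inside a transcribed locus of the opposite strand, 4933431K23Rik, which was at 3.65 and 2.90 CPM in the same cells. The sources used here do not state whether the counting used strand.

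Ece1 differed between the 2 mural groups. It was at 359 CPM in pericyte-like cells (119 UMIs, interval 298 to 430) and at 26.7 CPM in smooth muscle-like cells (19 UMIs, interval 16.1 to 41.7), a ratio of 13.5 (interval 8.26 to 23.2). The 2 pericyte-like clusters were at 259 and 419 CPM, and the 3 smooth muscle-like clusters at 17.1, 18.9 and 56.1 CPM. The last was the cluster led by haemoglobin genes. These clusters are parts of the 185 cells of 1 library, and the share of all genes that differ between them was not counted. The pericyte-like level was 1.17 times the endothelial-like level of 306 CPM, with an interval that held 1 (0.972 to 1.40). The highest that any of the 8 endothelial markers reached in pericyte-like cells was 46.5% (median 4.399%). The threshold was set on these same 8 markers, so their low levels follow from the selection and are no measure for Ece1. The mural-like class as a whole, at 132 CPM, was lower than endothelium by a log2 difference of -1.21, which was -0.62 in the classes from Seurat integration, -0.91 with each cell thinned to 1000 UMIs and -2.07 with the threshold on endothelial RNA at 0.1%. An Ece1 UMI was found in 25.6% of pericyte-like (interval 16.8 to 36.1), 5.05% of smooth muscle-like and 25.9% of endothelial-like cells.

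Edn1, Edn3 and Nos3 were low in mural-like cells, and the threshold on endothelial RNA bears on all 3. Edn1 stood at 2.56% of its endothelial-like level, Edn3 at 1.60% and Nos3 at 4.20%, while the 8 endothelial markers stood at 2.09% to 39.1% (median 3.08%). The threshold was set on these same 8 markers, so their low levels follow from the selection. Ace had 0 UMIs in the 185 cells, which allows up to 2.88 CPM and makes it at least 6.12-fold lower than in endothelium. Ednrb had 8 UMIs (7.67 CPM, interval 3.31 to 15.1).

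The third comparison set non-traced ependymal-like against endothelial-like cells of the same library. Of the 8 genes, 3 were over 2-fold higher in ependymal-like cells (Ednrb, Ednra and Agt) and 5 were lower (Edn1, Edn3, Ece1, Nos3 and Ace). Among all 23222 genes 20.3% were higher and 11.4% lower, 31.7% either way. For genes of 10 CPM or more in either class 27% were higher and 19.2% lower, 46.2% either way. The median difference was -3.11 over the 8 genes and 0.08 over all.

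Ednrb (ENSMUSG00000022122.15, chromosome 14, positions 103814625 to 103844402, minus strand) was highest in ependymal-like cells among the classes compared. It was not particular to them, since droplets with astrocyte and endothelial markers, which entered no comparison, also held Ednrb at a level given further below. Its level was 401 CPM in the ependymal-like cells (3623 UMIs, interval 388 to 414) and at 3.47 CPM in endothelial-like cells (629 UMIs, interval 3.20 to 3.75), 116 times higher in the former (interval 106 to 126). An Ednrb UMI was found in 30.6% of ependymal-like cells (interval 28.01 to 33.38) and in 0.362% of endothelial-like cells, at median depths of 7152 and 6901 UMIs. Without thinning, 93.1% of traced ependymal-like cells had one. Among endothelial clusters it was between 2.06 and 8.29 CPM, the highest in the Fbln5 and Mgp cluster.

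The ependymal-like clusters differed in Ednrb, and in the same order in both libraries. In the cluster led by Pcp4 and Pcsk2, the largest, it was at 493 CPM in non-traced (714 cells) and 502 CPM in traced cells (3783 cells). In the cluster led by Sntn and Pvalb it was at 335 CPM (79 cells) and 316 CPM (726 cells). In the cluster led by Ucma and Clec3b it was at 237 CPM (372 cells) and 245 CPM (202 cells). The Ucma and Clec3b cluster had 0.481 times the level of the Pcp4 and Pcsk2 cluster among non-traced cells (interval 0.441 to 0.524) and 0.487 times among traced cells (interval 0.444 to 0.533). A small dividing group of the traced library (46 cells, led by Mki67 and Top2a) was at 443 CPM.

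Ednra ran the other way between the same clusters. It was at 33.8 CPM in the Ucma and Clec3b cluster and 23.7 CPM in the Pcp4 and Pcsk2 cluster of the non-traced library, a ratio of 1.43 (interval 1.09 to 1.88). In the traced library it was at 44.0 and 28.1 CPM, a ratio of 1.56 (interval 1.24 to 1.95). The 10 mural markers were also higher in the Ucma and Clec3b cluster, at 269 against 112 CPM in the non-traced and 211 against 32.4 CPM in the traced library, and their part in the result was not tested. Of the 10 mural markers 5 were at 0 in the traced Ucma and Clec3b cells and 3 in the traced Pcp4 and Pcsk2 cells.

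**Figure D3:**
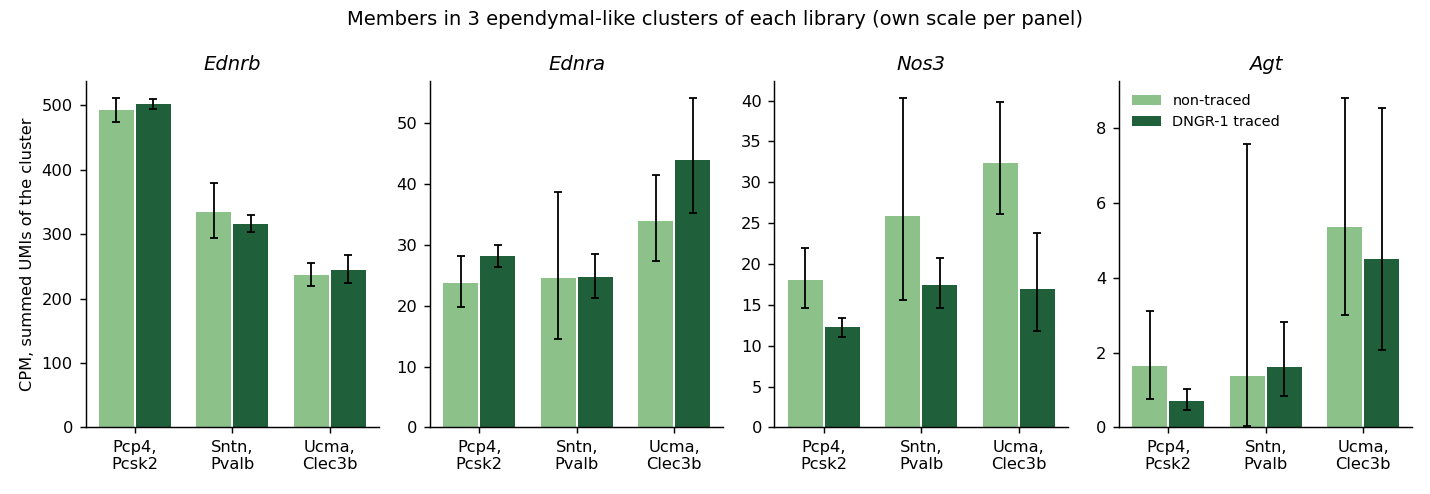
Level in CPM of Ednrb, Ednra, Nos3 and Agt (1 panel each, with its own scale from 0) in 3 ependymal-like clusters, each named with 2 of its leading genes, in the non-traced (light) and DNGR-1 traced (dark) library. Bars are CPM of the summed UMIs and lines are exact 95% Poisson intervals. Ednrb is at 493 and 502 CPM in the Pcp4 and Pcsk2 cluster and at 237 and 245 CPM in the Ucma and Clec3b cluster, while Ednra and Agt are highest in the latter.

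The last comparison set traced against non-traced ependymal-like cells. The classes were not built alike: the traced class kept 9 cells of the cluster with endothelial and ependymal markers and the 46 dividing cells. The non-traced parts of these clusters (713 and 75 cells) carried markers of several classes and were left out. On the log2(CPM + 1) scale, 3 of the 8 genes were over 2-fold lower in traced cells (Edn1, Edn3 and Ece1). On the same scale 0 were higher and 5 lay within 2-fold. As plain ratios of CPM, on low counts, Ace was at 0.148 (interval 0.0422 to 0.485) and Agt at 0.362 (interval 0.218 to 0.615) of the non-traced level. Among all 21410 genes 2.41% were lower and 0.724% higher, 3.13% either way. With genes of 10 CPM or more in either class only, the share either way was 2.62%. The median difference was -0.83 over the 8 genes and -0.01 over all.

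The receptors were close between the libraries. Traced cells had 460 CPM of Ednrb against 401 CPM, a ratio of 1.15 (interval 1.11 to 1.19), and 35.4% against 30.6% of cells had a UMI. Within the Pcp4 and Pcsk2 cluster the ratio was 1.02 (interval 0.978 to 1.06) and within the Ucma and Clec3b cluster 1.03 (interval 0.916 to 1.16), and the clusters made up unequal parts of the 2 libraries.

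The 3 genes over 2-fold lower on the log2(CPM + 1) scale were highest in endothelial-like cells or, for Ece1, as high in pericyte-like cells. Agt, at 0.254 CPM in endothelial-like cells, was also lower, at 1.001 CPM in traced against 2.77 CPM in non-traced cells. Traced cells had 2.11 CPM of Edn1 against 10.1 CPM, 0.239 CPM of Edn3 against 2.88 CPM, and 3.33 CPM of Ece1 against 13.2 CPM. The log2 differences were -1.83, -1.65 and -1.71. The endothelial markers moved with them: all 8 were detected in both libraries, and their sum was 39.9 CPM with and 585 CPM without the trace. Among traced clusters it was 30.3 CPM in Pcp4 and Pcsk2, 16.4 CPM in Sntn and Pvalb and 8.49 CPM in Ucma and Clec3b cells. The traced class also held 9 cells of the cluster with endothelial and ependymal markers, with a mean endothelial marker share of 0.431. Of the 11 traced Edn3 UMIs, 1 lay in the Pcp4 and Pcsk2 cluster (3783 cells) and 0 in the Sntn and Pvalb and the Ucma and Clec3b clusters. In non-traced cells Edn1 stood at 3.84%, Edn3 at 2.40% and Ece1 at 4.30% of the endothelial-like level, and the 8 markers at 2.75% to 6.97% (median 2.98%). The traced library held 52 endothelial-like cells, 1.08% of its cells, against 81.5% in the non-traced library. Endothelial RNA free in the non-traced suspension and expression by ependymal cells cannot be told apart here. The Edn3 difference was -0.39 with each cell thinned to 1000 UMIs and -0.59 with a pseudocount of 5.

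Nos3 stood above the endothelial markers in ependymal-like cells. Non-traced cells had 23.1 CPM (209 UMIs, interval 20.1 to 26.5) and traced cells 13.3 CPM (612 UMIs, interval 12.3 to 14.4). These levels are 12.7% (interval 11.002 to 14.5) and 7.30% (interval 6.73 to 7.91) of the endothelial-like level of 183 CPM. In traced cells the 8 endothelial markers stood at 0.0682% to 4.66% of theirs (median 0.110%), and the highest was Kdr at 23.6 CPM. A Nos3 UMI was found in 2.92% of non-traced and 1.62% of traced ependymal-like cells (interval 1.28 to 2.02). The traced over non-traced ratio was 0.576 (interval 0.492 to 0.677).

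The Nos3 locus carries other transcripts. An antisense gene, Gm15587, overlaps it by 17423 bases, and reached 12.2 and 13.6 CPM in ependymal-like cells, non-traced and traced, but 0.667 CPM in endothelial-like cells. Its level in traced ependymal-like cells was thus near that of Nos3 itself. Atg9b, on the opposite strand, overlaps the 3′ end by 294 bases and had 0 UMIs in ependymal-like cells of either library, which allows up to 0.332 and 0.0653 CPM. If the counting did not use strand, reads of Nos3 and its antisense partner cannot be told apart, and the ependymal Nos3 values are uncertain for that reason.

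**Figure D4:**
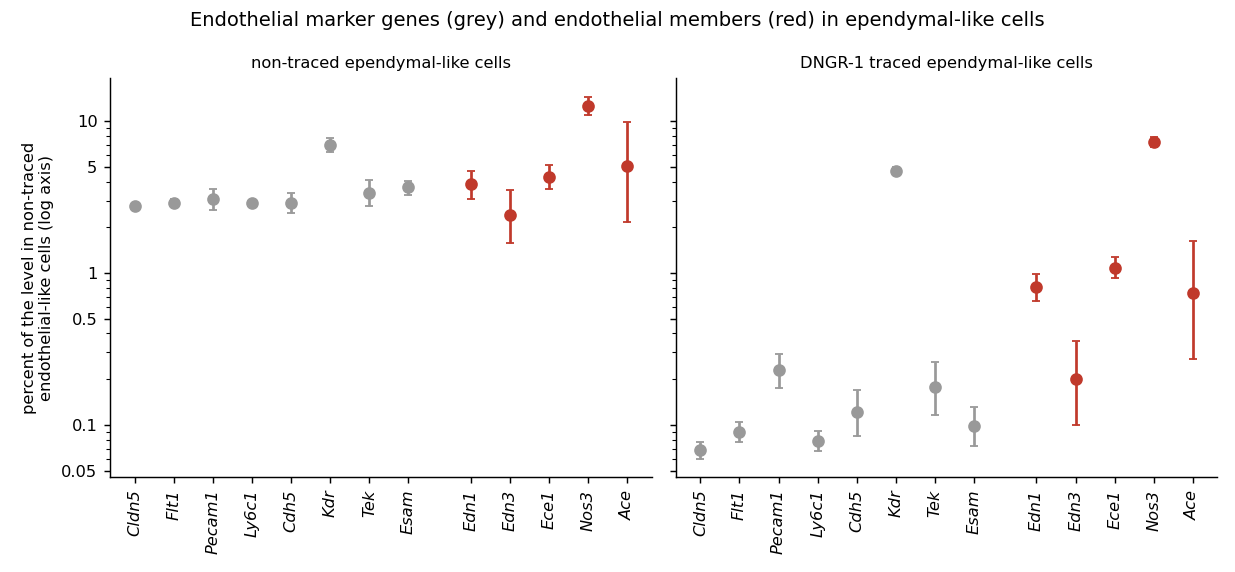
Level of 8 endothelial marker genes (grey) and of Edn1, Edn3, Ece1, Nos3 and Ace (red) in ependymal-like cells of the non-traced (left) and DNGR-1 traced library (right), as percent of the level in non-traced endothelial-like cells (log axis). Lines are 95% intervals of the ratio of counts. Nos3 stands above the markers in both libraries, at 12.7% and 7.30%, while the median marker is at 2.98% and 0.110%.

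Ace and Agt were hardly detected in the canal lining. Ace had 8 UMIs in non-traced (0.885 CPM) and 6 UMIs in traced ependymal-like cells (0.131 CPM). Agt (ENSMUSG00000031980.9, chromosome 8, positions 124556534 to 124569706, minus strand) reached 2.77 CPM in ependymal-like cells of the non-traced (25 UMIs, interval 1.79 to 4.08) and 1.001 CPM in those of the traced library (46 UMIs, interval 0.733 to 1.34), against 0.254 CPM in endothelial-like cells. It was highest in the Ucma and Clec3b cluster, at 5.34 CPM (15 UMIs) and 4.50 CPM (9 UMIs) in the non-traced and traced library. Counting error covered the order of Agt among the vessel classes, where each had 16 UMIs or fewer. The Agt difference between ependymal-like and endothelial-like cells rested on low counts, at 1.59 with a pseudocount of 1 and 0.56 with a pseudocount of 5.

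The order of the levels was set beside its counting error over 8 groups, with the 2 arterial clusters kept apart. For Edn1 the order was the Fbln5 and Mgp cluster, the Igfbp3 and Vegfc cluster, capillary, venous, pericyte-like, non-traced ependymal-like, smooth muscle-like and traced ependymal-like cells, and neighbours did not differ beyond counting error between capillary and venous or among the groups from pericyte-like cells down. For Ece1 the pericyte-like cells led, without differing from the next group, the Igfbp3 and Vegfc cluster. For Ednra pericyte-like, smooth muscle-like and ependymal-like cells followed each other, and the endothelial groups below them could not be ordered. For Ednrb the groups below the ependymal-like cells had no neighbours that differed. For Nos3 the order was the Fbln5 and Mgp cluster, venous, the Igfbp3 and Vegfc cluster and capillary cells. Each differed from the next beyond counting error, which does not cover differences between animals or sorts.

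The other genes of these systems were taken from a list, of which 29 genes were in the tables and are reported. For the endothelin system all 4 further genes stayed under 20 CPM in every class. The ligand gene Edn2 reached 0.553 CPM, in ependymal-like cells of the non-traced library, and the second protease gene Ece2 between 1.404 CPM in smooth muscle-like and 9.06 CPM in pericyte-like cells. In arterial against capillary cells 2 of the 29 were over 2-fold higher and 1 lower, beside 2.17% and 0.535% of all genes. In venous against capillary cells 0 differed, beside 2.34% of all genes. In mural-like against endothelial-like cells 10 were higher and 7 lower, beside 12.0% and 11.1%. The counts were 2 and 9 in non-traced ependymal-like against endothelial-like cells, beside 20.3% and 11.4%, and 1 and 3 in traced against non-traced ependymal-like cells, beside 0.724% and 2.41%.

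Of the nitric oxide genes around the synthase, several were highest in endothelial-like cells. Nostrin, which encodes a trafficking partner of the synthase, was at 443 CPM in endothelial-like cells, Cav1, which encodes caveolin 1, at 451 CPM, Gch1, which encodes the first enzyme of tetrahydrobiopterin synthesis, at 132 CPM, and Ddah1, which encodes an enzyme that breaks down a synthase inhibitor, at 151 CPM. The related Ddah2 did not share this pattern, at 117 CPM in endothelial-like and 159 and 151 CPM in non-traced and traced ependymal-like cells, and Nosip, which encodes a protein that binds the synthase, was nearly level between endothelial-like (57.9 CPM) and pericyte-like cells (54.4 CPM). Genes of the response to nitric oxide were higher in mural-like cells. Gucy1a3 and Gucy1b3, which encode the subunits of soluble guanylate cyclase, were at 520 and 686 CPM in mural-like cells and at 1.64 and 3.40 CPM in endothelial-like cells. Prkg1, which encodes cyclic GMP-dependent protein kinase, was at 102 against 8.21 CPM, and Pde5a, which encodes a phosphodiesterase that ends the cyclic GMP signal, at 490 against 18.8 CPM. The phosphodiesterase gene Pde3a was at 552 CPM in smooth muscle-like and 78.5 CPM in pericyte-like cells.

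The other synthase genes divided the vessel tree. Nos1, which encodes the synthase best known from neurons, was at 42.6 CPM in arterial cells (interval 40.7 to 44.5) and 0.446 CPM in capillary cells, 95.4 times higher in the former (interval 67.4 to 140). It was among the 10 leading genes of the Fbln5 and Mgp cluster. Nos2, which encodes the inducible synthase, was at 5.26 CPM in arterial, 17.4 CPM in capillary and 20.1 CPM in venous cells. In ependymal-like cells Nos1 and Nos2 were at or below 0.553 CPM in both libraries.

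On the angiotensin side 2 aminopeptidase genes were highest in mural-like cells. Enpep, which encodes aminopeptidase A, was at 353 CPM in pericyte-like, 111 CPM in smooth muscle-like and 1.28 CPM in endothelial-like cells. Anpep, which encodes aminopeptidase N, was at 99.7, 18.3 and 0.513 CPM in the same order. Receptor genes were hardly detected: Agtr1a had 1 UMI and Agtr1b 6 UMIs (8.43 CPM) in smooth muscle-like cells, and both had 0 UMIs in pericyte-like cells, which allows up to 9.06 CPM and gives no order between the mural groups. Atp6ap2, which encodes the (pro)renin receptor, was found in all classes, at 67.1 CPM in endothelial-like and 142 and 151 CPM in non-traced and traced ependymal-like cells.

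**Figure D5:**
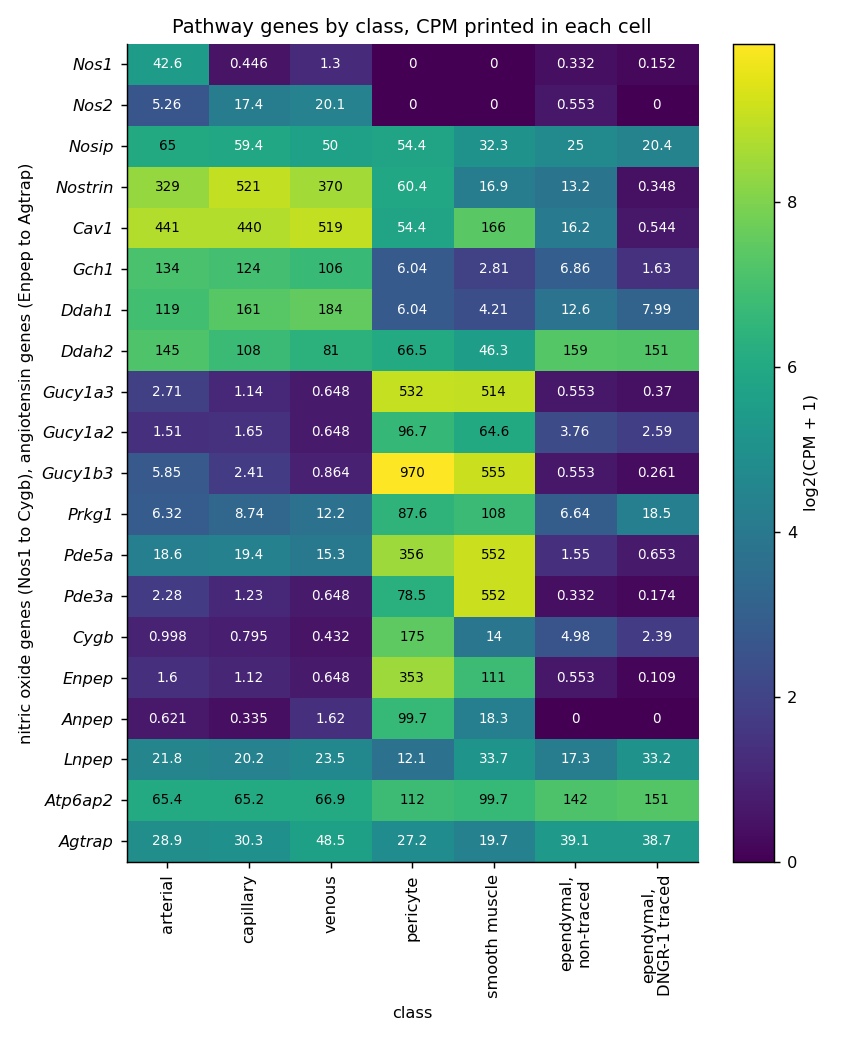
Level of 20 further genes of the nitric oxide and angiotensin systems in 7 classes, coloured by log2(CPM + 1) with the CPM printed in each field. Rows are genes and columns are classes. Nostrin, Cav1, Gch1 and Ddah1 are high in the 3 endothelial columns, the guanylate cyclase genes, Pde5a and Enpep in the 2 mural columns, and Nos1 in the arterial column.

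For each of the 8 genes the genes with the most similar pattern were sought by Pearson's r of log2(CPM + 1) over 20 cluster parts of at least 50 cells, among 10370 genes. The parts came from both libraries and differed in depth, and the values are descriptions. The most similar gene was Itpr3 for Edn1 (r = 0.988), Hrct1 for Edn3 (0.986), Pde8a for Ece1 (0.997), Pde1a for Ednra (0.976), Col23a1 for Ednrb (0.988), Rab11a for Nos3 (0.993), Eln, the elastin gene, for Ace (0.969), and Ntsr2 for Agt (0.973). The highest part for Agt, at 586 CPM, was the droplets with astrocyte and endothelial markers, which entered no comparison. Ntsr2 was among the leading genes of these droplets.

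The 52 endothelial-like cells of the traced library held the endothelial genes at levels of the same order as non-traced endothelium. Edn1 was at 271 CPM (interval 228 to 320) against 262 CPM, Ece1 at 258 against 306 CPM and Nos3 at 154 against 183 CPM. Edn3 was at 219 CPM against 120 CPM, a ratio of 1.83 (interval 1.51 to 2.20), and Ace at 53.9 CPM against 17.6 CPM, a ratio of 3.06 (interval 2.03 to 4.44). Of these cells 19 were in the Igfbp3 and Vegfc cluster and 8 in the Fbln5 and Mgp cluster, and the 13 arterial markers were at 2738 against 1141 CPM. The part of the arterial cells in these ratios was not tested. Ednrb was at 19.3 CPM (10 UMIs) against 3.47 CPM in the non-traced endothelium. The 10 ependymal markers summed to 28.9 CPM in the traced and 10.95 CPM in the non-traced endothelial-like cells. Traced ependymal-like cells, most of that library, held Ednrb at 460 CPM, and the part of their RNA in this value was not tested.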

How the data were processed

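Per the labels, libraries were made with the Chromium Single Cell 3′ kit. The authors aligned reads to mm10 and counted them with Cell Ranger 3.0.2 (STAR 2.5.1b) per their processing notes, and deposited UMI counts per gene and barcode without normalisation. Genes listed for only 1 library counted as 0 in the other. Use of strand in counting is not given in the sources used here. The study's filter of at least 50 genes per cell removed 0 cells.

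Both libraries were clustered together without integration (scanpy 1.11.5, 2000 variable genes without the members, the pathway list and reporter rows, 20 components, 20 neighbours, Leiden at 0.8, seed 1). A cluster part took a class whose markers were found in a mean of 50% of its cells. Endothelial clusters were zoned by mean marker z-score with a margin of 0.5. Parts with markers of several classes (2350 cells with endothelial and mural, 713 with endothelial and ependymal markers in the non-traced library) were left out. These thresholds were set after the data were seen. Doublets were otherwise kept: Scrublet called 2209 non-traced cells (8.69%, 20.3% expected) and 0 traced cells (3.86% expected), so doublets of the traced library were not assessed. Class names were made anew here, so values can depart from the study's for that reason alone.

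UMIs were summed per class and scaled to CPM. Differences are in log2(CPM + 1), and a gene is counted as differing at 2-fold. Ratios carry exact binomial intervals, and 0 counts come with the level that 3 counts would give. PCR copies are collapsed by UMI, and intervals cover counting error only, not animals or sorts. The statistics were tested on simulated data for genes of 20 CPM or more. These were drawn from the counting model itself, so the test does not cover variation between cells, animals or sorts. The 8 genes, the pathway list and the markers were chosen with earlier results of these data known. Of the pathway list, 1 gene is not reported here, and Gucy1a1 and Gucy1b1 (listed as Gucy1a3 and Gucy1b3), Ren1, Agtr2, Cma1 and Ctsg were not analysed here. Pathway genes were named at 20 CPM or more in any class, and the most similar genes by r among genes of 20 CPM or more. Positions and sequences are from GENCODE M21, on GRCm38, the same build as mm10. Alternatives were Seurat 5.3.0 (R 4.3.3) integration, resolution 1.2, doublet calls, cells with markers of another class or over 10% mitochondrial UMIs left out, thinning, other scalings, a pseudocount of 5 and a filter at 10 CPM.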

Additional observations from a re-analysis of the deposited data

Results flagged for a closer look

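Agt was seen at 586 CPM (798 UMIs, interval 546 to 628) in 123 non-traced droplets that carried astrocyte and endothelial markers together and entered no comparison. An Agt UMI was found in 43.9% of them after thinning to 1000 UMIs (interval 35.0 to 53.1), against 0.0241% of endothelial-like cells. The level stands above the 0.254 CPM of endothelial-like cells and the 2.77 CPM of ependymal-like cells of the same library, which served as the background. The 8 astrocyte markers summed to 7368 CPM in these droplets and to 916 and 884 CPM in non-traced and traced ependymal-like cells. Ednrb was at 297 CPM in the same droplets (interval 269 to 328).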

How the results depend on the processing

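The 40 differences (8 genes in 5 comparisons) were recomputed under 12 alternatives (28 of them, with 18 of the 20 past 2-fold, under the filter at 10 CPM), 2 of them (the threshold on endothelial RNA at 0.1% and 0.4%) added after the data were seen. None of the 20 that passed 2-fold changed sign. Ece1 in mural-like against endothelial-like cells fell under 2-fold with Seurat integration (-0.62), thinning (-0.91), mean per-cell CPM (-0.63) and the 0.4% threshold (-0.87), Edn3 in traced against non-traced ependymal-like cells with thinning (-0.39) and a pseudocount of 5 (-0.59), and Agt in ependymal-like against endothelial-like cells with a pseudocount of 5 (0.56). Ednrb in mural-like cells, at 0.96, passed 2-fold with Seurat integration (1.41), thinning (1.35), mean per-cell CPM (1.36) and the 0.4% threshold (1.22), Agt there with cells of other markers left out (1.58) and the 0.1% threshold (1.06), and Ace in traced against non-traced ependymal-like cells with thinning (-1.84). The cause was not tested. At resolution 1.2 the venous class held 2406 in place of 963 cells. Leaving out cells with markers of another class left 634 of the 1165 non-traced and 4760 of the 4766 traced ependymal-like cells.

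Shares of cells depended on depth. With 2000 UMIs per cell, and with all UMIs, they were 52.6% and 80.7% for Edn1, 35.1% and 71.0% for Edn3, 45.3% and 87.1% for Ece1, 31.8% and 75.4% for Nos3 and 7.82% and 26.0% for Ace in arterial cells, 37.3% and 64.9% for Ednra in mural-like cells, 56.7% and 93.1% for Ednrb in traced and 0.775% and 1.97% for Agt in non-traced ependymal-like cells. No paired analysis was possible because each group was 1 library, which also left no replicate to leave out. The mural values rest on 86 pericyte-like and 99 smooth muscle-like cells and on the threshold on endothelial RNA, which put Ece1 between -0.87 (0.4%) and -2.07 (0.1%).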
